A study of Mus musculus with 9 samples.

Results

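The transcription factors of the AP-1 and ATF group were examined by taking every probe set that the annotation of the array assigns to *Fos*, *Fosb*, *Fosl1*, *Fosl2*, *Jun*, *Junb*, *Jund*, *Atf3*, *Maff* or *Batf3*. All 10 genes were represented, by 14 of the 45037 probe sets compared, and 18193 genes had a symbol in all. The cells were MC3T3-E1, an established line of mouse preosteoblasts from the calvaria of newborn mice, labelled as C57BL/6. They had been kept for 14 days in medium with 10% serum, 0.3 mM ascorbic acid and 10 mM β-glycerophosphate, then reseeded and cultured for 24 h. Low-intensity pulsed ultrasound (LIPUS) at 30 mW/cm2 and 1.5 MHz was applied for 20 min through the bottom of the dish, and RNA was taken after a further 6 h or 24 h. Mock-treated cells were the control, and each of the 3 groups had 3 arrays, numbered 1 to 3. The study describes 3 repeated experiments, and the replicate number was taken here as the experiment. The labels do not state this. The culture time of the mock cells is not given in the sources used here, so the effect of LIPUS and that of time in culture cannot be told apart. The labels do not say that the experiments used separate cultures, so p-values measure only the spread between these arrays.

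AP-1 is a dimer of basic leucine zipper (bZIP) proteins, usually one Fos-family and one Jun-family protein, that binds a short palindromic site in DNA. Several of its genes, *Fos* and *Fosb* above all, are immediate early genes: mechanical load, growth factors and stress switch them on briefly through MAP kinases and serum response factor, so their transcripts typically peak and fade well before protein targets accumulate. In bone, Fos-family proteins are known regulators of osteoblast and osteoclast formation, and ATF and small Maf proteins pair with the same zipper family to form dimers that bind related sites.

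Promoters of 4 members are shown because their genes carry the comparisons that follow or are the classical early responders. RefSeq start sites on GRCm38.p6 were found for 9 of the 10 genes, 11 start sites in all, and each window runs from 250 bases before the start to 50 after it, read 5′ to 3′ on the strand of the gene. Capitals mark matches to the motifs searched on both strands, which were the AP-1 site TGANTCA, the cyclic AMP response element TGACGTCA, its core TGACG, the variant TGACATCA and, by name, the CArG box that serum response factor binds. The core also lies within the full element.

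*Jun* (chr4:95052173-95052472, minus strand): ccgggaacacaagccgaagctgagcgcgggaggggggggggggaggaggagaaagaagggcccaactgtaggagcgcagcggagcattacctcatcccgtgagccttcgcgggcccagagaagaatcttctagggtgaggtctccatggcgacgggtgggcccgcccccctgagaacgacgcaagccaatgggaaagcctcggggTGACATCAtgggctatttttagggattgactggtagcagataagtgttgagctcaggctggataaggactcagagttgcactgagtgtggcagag
*Fosl2* (chr5:32136222-32136521, plus strand): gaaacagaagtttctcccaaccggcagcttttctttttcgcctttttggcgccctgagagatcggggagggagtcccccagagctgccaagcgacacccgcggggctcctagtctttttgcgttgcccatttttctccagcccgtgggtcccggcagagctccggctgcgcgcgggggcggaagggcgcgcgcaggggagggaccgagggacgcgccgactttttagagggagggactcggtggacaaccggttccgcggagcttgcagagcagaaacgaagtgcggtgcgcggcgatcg
*Fos* (chr12:85473640-85473939, plus strand): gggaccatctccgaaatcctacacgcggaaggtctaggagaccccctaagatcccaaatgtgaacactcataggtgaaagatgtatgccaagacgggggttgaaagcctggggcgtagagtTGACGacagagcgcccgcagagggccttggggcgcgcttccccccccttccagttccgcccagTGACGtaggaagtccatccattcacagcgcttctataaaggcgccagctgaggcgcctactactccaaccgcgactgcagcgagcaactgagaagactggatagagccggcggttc
*Atf3* (chr1:191183284-191183583, minus strand): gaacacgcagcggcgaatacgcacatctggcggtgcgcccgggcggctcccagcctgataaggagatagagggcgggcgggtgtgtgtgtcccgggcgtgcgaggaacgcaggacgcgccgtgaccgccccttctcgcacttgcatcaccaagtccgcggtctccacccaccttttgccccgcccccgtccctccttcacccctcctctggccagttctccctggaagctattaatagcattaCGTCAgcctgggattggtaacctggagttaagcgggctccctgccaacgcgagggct

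The *Jun* window held TGACATCA at positions -45 to -38, where -1 is the base just before the start. Among all 32851 promoter windows of 27025 genes, 3.62% held this variant, and 2 of the 11 member windows did, the other being a start site of *Maff*. The *Fos* window held the core at 2 places, -129 to -125 and -66 to -62, and *Atf3* held it on the opposite strand at -7 to -3. The core was found in 6 of the 11 member windows and in 20.8% of all windows. The full element TGACGTCA stood in 1 member window, at a start site of *Maff*, and in 1.79% of all windows. None of the 11 windows held the AP-1 site itself, which 7.81% of all windows held, or the CArG box, which 1.63% held, and the window of *Fosl2* held none of the motifs. These are matches of letters and say nothing of binding. Sequence outside the windows was not searched. An AP-1 site or a CArG box further upstream of *Fos* or another member would have been missed.

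Values are log2 signals, and every comparison was made within experiments as numbered, because arrays with the same replicate number deviated together from their group means. The median signal was 5.15 on each array of experiment 2 and between 4.89 and 5.01 on the others. Many deposited values of experiments 2 and 3 were exactly the same on the control and the LIPUS array: 48.4% of probe sets at 24 h and 49.5% at 6 h in experiment 2, and 31.9% and 43.2% in experiment 3, against 1.26% and 1.72% in experiment 1. A ratio of exactly 1 in what follows comes from such equal values. Their part in the spread, and in the shared deviation of same-numbered arrays, was not tested. Of the osteoblast markers, each taken at its brightest probe set, 12 of 13 measured genes had a mean signal at or above the median of all probe sets, and none passed the test at 24 h, while *Col5a2* passed at another of its probe sets (0.11, limma adjusted p = 0.0464). *Runx2*, *Bglap* and *Spp1* were not analysed here. In the lists of other cell types, 2 of 7 adipocyte, 3 of 11 macrophage and osteoclast, 2 of 9 endothelial, 6 of 13 epithelial, 5 of 10 chondrocyte and 4 of 10 myocyte genes reached that median. At 24 h *Krt14*, *Cdh1* and *Col2a1* fell by 0.98, 0.75 and 0.82 on the log2 scale and *Trp63* and *Ctsk* rose by 0.44 and 0.40. The mean log2 signal of the epithelial list ran from 5.21 to 5.52 on the control arrays and from 5.06 to 5.40 at 24 h, and that of the chondrocyte list from 5.59 to 5.75 and from 5.42 to 5.64. The part of such cells or genes in the values of the AP-1 genes was not tested.

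At 24 h after LIPUS, *Fosl2* was higher and *Jun* was lower than in the mock control, both by small amounts, and no other AP-1 or ATF gene passed the test. *Fosl2* encodes Fra-2, a Fos-family protein of osteoblasts, and *Jun* encodes the best-known partner of the Fos family. The changes were a 1.13-fold rise (95% interval 1.08 to 1.17) for probe set 1437247_at of *Fosl2* and a 0.871-fold level (0.819 to 0.926) for probe set 1417409_at of *Jun*. Among all probe sets 1.8% were higher and 0.933% lower at 24 h (limma, Benjamini-Hochberg adjusted p under 0.05), and 1 of the 14 member probe sets went each way. Among the probe sets with a mean signal at or above the median of all, 5.38% changed in either direction, and 2 of the 9 members of that kind did. The median log2 change over the 14 member probe sets was -0.03, beside 0.00117 over all probe sets, and the median size of the change was 0.09, beside 0.06. Both calls depended on the fit, since neither passed without the experiment as a block (limma adjusted p = 1 for each) or when only the control and 24 h arrays were fitted (0.209 for *Fosl2* and 0.384 for *Jun*). At an unadjusted p under 0.05, 12.6% of all probe sets and 6 of the 14 member probe sets differed.

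**Figure D1:**
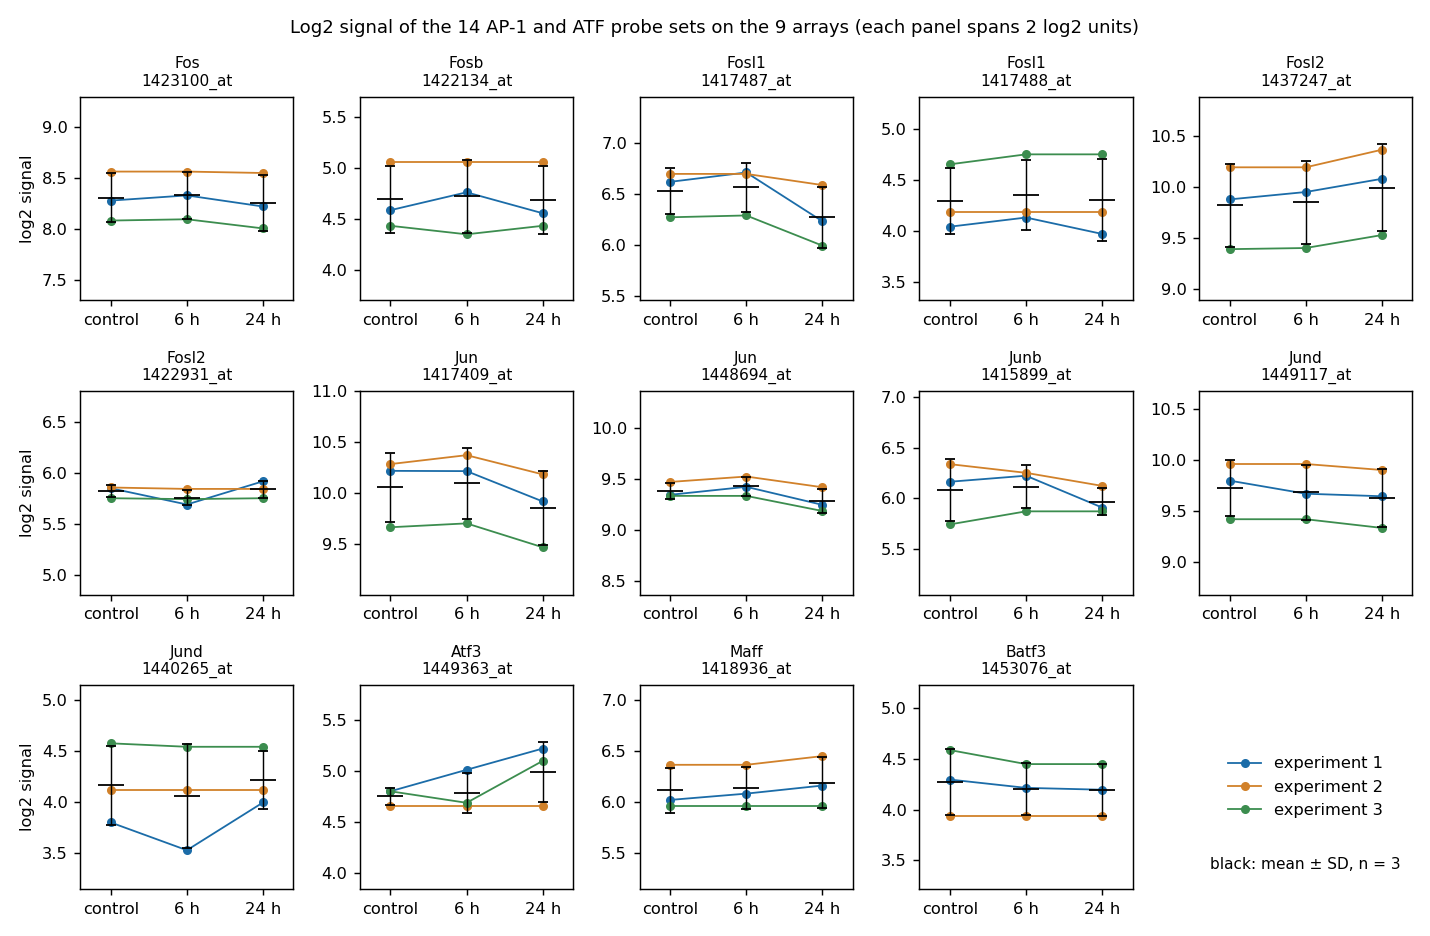
Log2 signal (vertical axis) of the 14 AP-1 and ATF probe sets in control cells and at 6 h and 24 h after LIPUS (horizontal axis), with 1 coloured line for each of the 3 experiments and black bars for the mean ± SD (n = 3). Each panel spans the same range, so the distance between the lines of the experiments can be compared with the change along a line. *Fosl2* 1437247_at ends higher at 24 h and *Jun* 1417409_at lower on every line.

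*Fos*, the immediate early gene whose product gives AP-1 its Fos subunit, was hardly moved at either time. Its log2 signal was 8.28, 8.56 and 8.08 in the control of experiments 1, 2 and 3, then 8.33, 8.56 and 8.10 at 6 h and 8.22, 8.55 and 8.01 at 24 h. The 24 h value was the lowest of its experiment each time, and the ranges of the 3 groups overlapped. The difference at 24 h was -0.05 ± 0.03 (SE, n = 3 pairs, 95% interval -0.13 to 0.03, limma adjusted p = 0.605), so the interval allows a fall of 0.13 at most. *Fosb*, which encodes a close relative of Fos, lay at 4.59, 5.07 and 4.44 in the control and at 4.56, 5.07 and 4.44 at 24 h, below the median of all probe sets, with ratios of exactly 1 in experiments 2 and 3. Its interval at 24 h, from -0.18 to 0.16, was wider than that of *Fos*.

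The probe set 1437247_at of *Fosl2* read 9.88, 10.19 and 9.39 in the control, 9.95, 10.19 and 9.40 at 6 h and 10.08, 10.37 and 9.53 at 24 h. Every 24 h value was above both other values of its experiment, although the group ranges overlapped. The group means were 9.82 ± 0.40, 9.85 ± 0.41 and 9.99 ± 0.43 (SD, n = 3). Within experiments the ratio of 24 h to control was 1.15, 1.13 and 1.10, a log2 difference of 0.17 ± 0.03 (SE, limma adjusted p = 0.0203). The call held without experiment 3 (adjusted p = 0.0358) but not without experiment 1 (0.270) or experiment 2 (0.356), and it held in 2 of the 9 fits that left out 1 array, while the difference stayed between 0.15 and 0.19 throughout. A second probe set of *Fosl2*, 1422931_at, read 5.85, 5.86 and 5.75 in the control and 5.92, 5.85 and 5.75 at 24 h. The difference at this second probe set was 0.02 ± 0.06 (SE, 95% interval -0.12 to 0.16, limma adjusted p = 0.919). This interval overlapped that of 1437247_at, 0.11 to 0.23 on the log2 scale. Whether the probe sets differed from each other was not tested.

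*Fosl1* encodes Fra-1, the Fos-family protein that promotes bone matrix formation and is itself a target of AP-1. Probe set 1417487_at read 6.62, 6.70 and 6.27 in the control, 6.71, 6.70 and 6.29 at 6 h and 6.23, 6.59 and 5.99 at 24 h. Its 24 h value was the lowest in each experiment, with ratios to control of 0.765, 0.927 and 0.825, and 0.765 was the smallest ratio of any member at 24 h. The mean difference, -0.26 ± 0.07 (SE, 95% interval -0.43 to -0.09), was larger than that of *Jun* but so was its spread, and it did not pass (limma adjusted p = 0.153). The second probe set of *Fosl1*, 1417488_at, was dim, at 4.04, 4.19 and 4.66 in the control and 3.97, 4.19 and 4.75 at 24 h, and showed no common direction.

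For *Jun*, probe set 1417409_at read 10.22, 10.29 and 9.67 in the control, 10.22, 10.37 and 9.70 at 6 h and 9.92, 10.18 and 9.47 at 24 h. The 24 h value was the lowest of its experiment in 3 of 3, while the group ranges overlapped. Group means were 10.06 ± 0.34, 10.10 ± 0.35 and 9.86 ± 0.36 (SD, n = 3). The ratios to control at 24 h were 0.812, 0.932 and 0.873, and the log2 difference was -0.20 ± 0.04 (SE, limma adjusted p = 0.0443). This call lay close to the threshold: without experiment 1, 2 or 3 the adjusted p was 0.469, 0.207 or 0.0888, and it lay between 0.0732 and 0.219 when any one array was left out, although the difference stayed between -0.25 and -0.15. The other probe set of *Jun*, 1448694_at, read 9.34, 9.47 and 9.33 in the control and 9.25, 9.42 and 9.18 at 24 h. It was lower at 24 h in 3 of 3 experiments as well, by -0.10 ± 0.03 (SE, 95% interval -0.17 to -0.03), and did not pass (limma adjusted p = 0.195).

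*Junb* and *Jund* encode the remaining Jun proteins, which bind the same sites with Fos partners and are weaker activators than Jun in many settings. *Junb* read 6.16, 6.34 and 5.75 in the control, 6.22, 6.25 and 5.87 at 6 h and 5.91, 6.12 and 5.87 at 24 h. The experiments went different ways at 24 h, with ratios of 0.839, 0.863 and 1.09, and the difference was -0.11 ± 0.08 (SE, 95% interval -0.31 to 0.08, limma adjusted p = 0.638). Left-out arrays moved it widely, to -0.036 without the 24 h array of experiment 1 and to -0.23 without experiment 3. *Jund* probe set 1449117_at read 9.79, 9.96 and 9.42 in the control and 9.64, 9.90 and 9.33 at 24 h, lower in 3 of 3 experiments by -0.10 ± 0.03 (SE, 95% interval -0.18 to -0.02) without passing (limma adjusted p = 0.248). The dim *Jund* probe set 1440265_at read 3.80, 4.12 and 4.58 in the control and 3.997, 4.12 and 4.54 at 24 h, with no common direction.

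*Atf3*, a stress-induced factor that pairs with Jun proteins and often represses, was higher on average at 24 h without passing the test. It read 4.80, 4.66 and 4.80 in the control, 5.01, 4.66 and 4.69 at 6 h and 5.22, 4.66 and 5.10 at 24 h. Its mean over all arrays, 4.84, was below the median of all probe sets, 4.99. Experiments 1 and 3 were higher at 24 h, by ratios of 1.34 and 1.23, and experiment 2 held the same value in all 3 groups. The log2 difference was 0.24 ± 0.10 (SE, 95% interval 0.01 to 0.47, limma adjusted p = 0.382), and it ran from 0.15 without experiment 1 to 0.36 without experiment 2.

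*Maff*, a small Maf protein without an activation domain, read 6.02, 6.37 and 5.96 in the control and 6.16, 6.45 and 5.96 at 24 h. It was higher in experiments 1 and 2 and equal in experiment 3, a difference of 0.08 ± 0.05 (SE, 95% interval -0.03 to 0.19, limma adjusted p = 0.591). *Batf3*, a bZIP factor best known from dendritic cells, read 4.29, 3.94 and 4.58 in the control and 4.19, 3.94 and 4.45 at 24 h, below the median of all probe sets. Its difference was -0.08 ± 0.06 (SE, limma adjusted p = 0.630). None of the 14 member probe sets reached 1.5-fold in any single experiment at either time, the extremes being ratios of 1.34 (*Atf3*) and 0.765 (*Fosl1*) at 24 h. Of all probe sets, 0.131% reached 1.5-fold one way in all 3 experiments at 24 h, which is 59 probe sets.

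At 6 h after LIPUS none of the AP-1 and ATF genes passed the test against the mock control. The log2 differences of the 14 probe sets lay between -0.10 (*Jund* 1440265_at) and 0.06 (*Fosl1* 1417488_at), with 10 above and 4 below 0 and a median of 0.03, and the smallest adjusted p by limma was 0.959. No probe set of the array passed at 6 h in either direction (0% higher and 0% lower), and none reached 1.5-fold in all experiments (0%). At an unadjusted p under 0.05 there were 1575 probe sets, 3.5% of all, and 0 of the members. *Fos*, the classical early gene, differed by 0.02 with a 95% interval from -0.06 to 0.10, and *Jun* 1417409_at by 0.04 with an interval from -0.05 to 0.13. In experiment 2, 10 of the 14 member probe sets held the same value at 6 h as in the control. No time earlier than 6 h was measured.

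**Figure D2:**
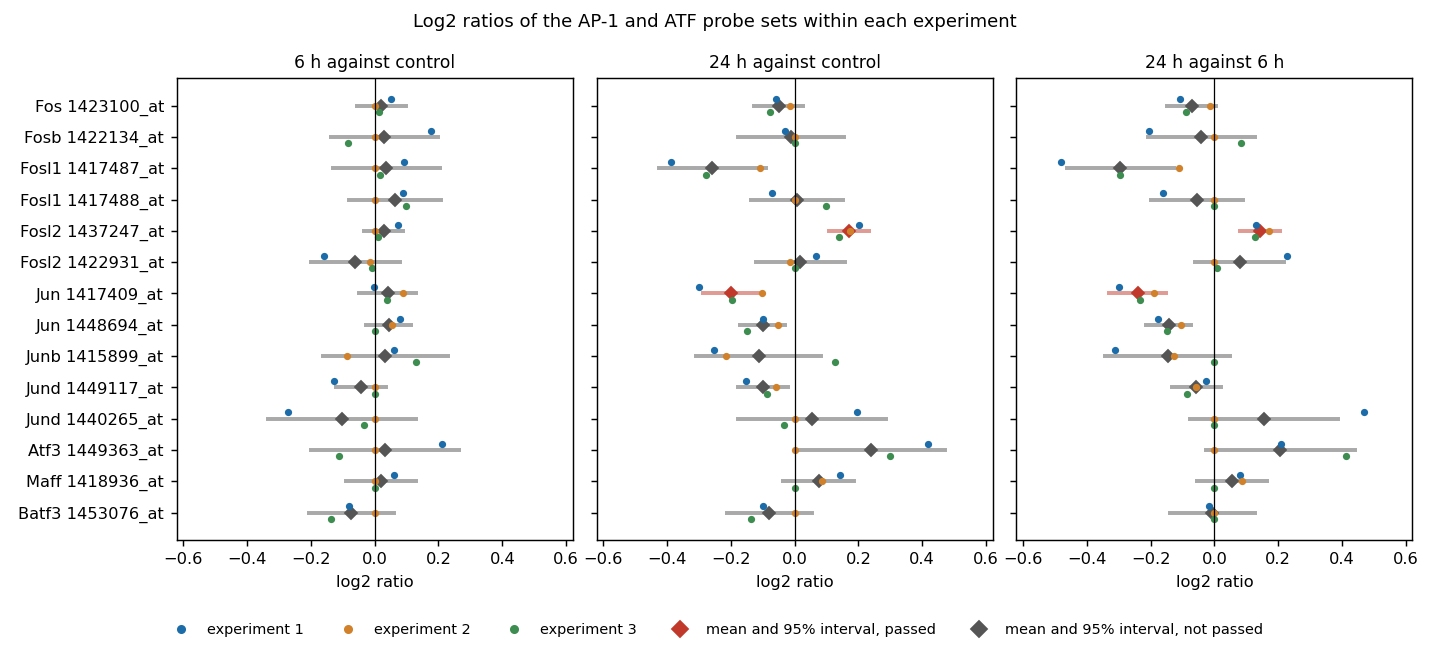
Log2 ratios (horizontal axis) of the 14 AP-1 and ATF probe sets (vertical axis) for 6 h against control, 24 h against control and 24 h against 6 h; coloured points are the 3 experiments, diamonds the mean and bars its 95% interval from limma, red where the adjusted p was under 0.05. In the panels for 24 h, *Fosl2* 1437247_at lies above 0 and *Jun* 1417409_at below 0 in all 3 experiments, and at 6 h every interval crosses 0.

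Between the LIPUS times the same pair of probe sets passed. *Fosl2* 1437247_at was higher at 24 h than at 6 h by 0.14 ± 0.03 (SE, 95% interval 0.08 to 0.20, limma adjusted p = 0.0478), with ratios of 1.09, 1.13 and 1.09, and *Jun* 1417409_at was lower by -0.24 ± 0.04 (SE, 95% interval -0.33 to -0.15, adjusted p = 0.0262), with ratios of 0.814, 0.878 and 0.850. Over all probe sets 1.14% were higher and 0.879% lower in this comparison. The second *Jun* probe set was lower by -0.14 (limma adjusted p = 0.0764) and *Fosl1* 1417487_at by -0.29 (adjusted p = 0.123), each in 3 of 3 experiments without passing, and *Fos* differed by -0.07 (adjusted p = 0.535). This comparison shares its 24 h arrays with the comparison against the control. Neither call was firm: of the 3 fits that left out an experiment, *Fosl2* passed in 0 and *Jun* in 1, the fit without experiment 3.

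The genes whose signals ran most like those of the changed members were found over the 9 arrays after each experiment was centred on its own mean, among 20049 named probe sets at or above the median signal. For *Fosl2* they were *Crnde*, *Nit2* and *Samd9l* (Pearson r of 0.997, 0.995 and 0.995), of which *Samd9l* was higher at 24 h by 0.16 (limma adjusted p = 0.0144) and the others did not pass. For *Jun* they were *Scarb1*, *Adamtsl5* and *Cyb561a3* (r of 0.996, 0.992 and 0.991), with differences at 24 h of -0.11, -0.40 and -0.17, none of which passed. These values are the highest of many and serve as a description.

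Around the AP-1 genes, 33 of 206 measured genes of 6 related lists changed at 24 h and 0 at 6 h, with the brightest probe set taken for each gene. Over all 18193 named genes taken in the same way, 2.57% were higher and 1.57% lower at 24 h, and the shares of the lists are to be read beside these. Most genes of the lists had bright probe sets, which passed more often (5.38% in either direction). The lists were chosen with earlier results of these data known, so their shares are not independent evidence about the genes around AP-1. The count of 33 depended on the experiments: it was 0 without experiment 1, 2 without experiment 2 and 37 without experiment 3. Among other bZIP factors, possible partners and competitors, 4 of 36 rose and none fell, with a median log2 change of 0.06. They were *Bach2* (0.54, limma adjusted p = 0.00725), a repressor that binds with small Maf proteins, its relative *Bach1* (0.16, adjusted p = 0.0464), and the clock output genes *Dbp* (0.47) and *Tef* (0.39). Among the MAP kinase and serum response factor genes that act upstream, 3 of 39 rose and none fell, with a median of 0.03. These were *Srf* itself (0.61, limma adjusted p = 0.00525), *Mef2a* (0.50, adjusted p = 2.38e-04) and *Mef2c* (0.34). Of 22 cofactors and regulators of AP-1 only *Txn1*, which encodes thioredoxin, passed, at -0.11 (limma adjusted p = 0.0165), and the median was 0.01.

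Of 46 measured genes that AP-1 is known to control in some cell type, 8 rose and 4 fell, with a median log2 change of 0.01. The matrix metalloproteinases *Mmp13* (1.34, limma adjusted p = 9.08e-04) and *Mmp9* (0.47) rose, as did *Fgf18* (0.69, adjusted p = 0.0372) and the activin antagonist *Fst* (0.37), while *Nqo1*, an antioxidant enzyme gene, and *Lox*, a collagen cross-linking enzyme gene, fell by 0.57 and 0.31. Of 40 other immediate early genes 8 rose and 2 fell, with a median of -0.02. *Egr3* (0.83), *Nr4a1* (0.70) and *Myc* (0.60, limma adjusted p = 7.31e-04) rose most, followed by *Ccn2* (0.37) and *Per1* (0.37), and *Gadd45b* fell by 0.33. In 29 genes of the amino acid and stress response to which *Atf3* belongs, 3 rose and none fell at the brightest probe sets. The median was 0.02, and the risen genes were *Slc7a5* (0.33), *Mthfd2* (0.29) and *Phgdh* (0.23). They encode an amino acid transporter and enzymes of one-carbon and serine metabolism. When any probe set of a gene could count, 1 gene of this list was lower and 3 higher, and 5 AP-1 targets were lower and 8 higher. The study had selected *Mmp13*, *Nqo1*, *Egr3* and *Nr4a1* on these same arrays, so they are not independent evidence of a direction for their lists. For 24 h against 6 h the lists are taken in the order given here. Higher were 3 of 36, 3 of 39, 0 of 22, 5 of 46, 6 of 40 and 4 of 29 genes. Lower were 0, 0, 1, 3, 3 and 0 genes. Over all probe sets 1.14% were higher and 0.879% lower, and a share by gene was not computed for this comparison.

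**Figure D3:**
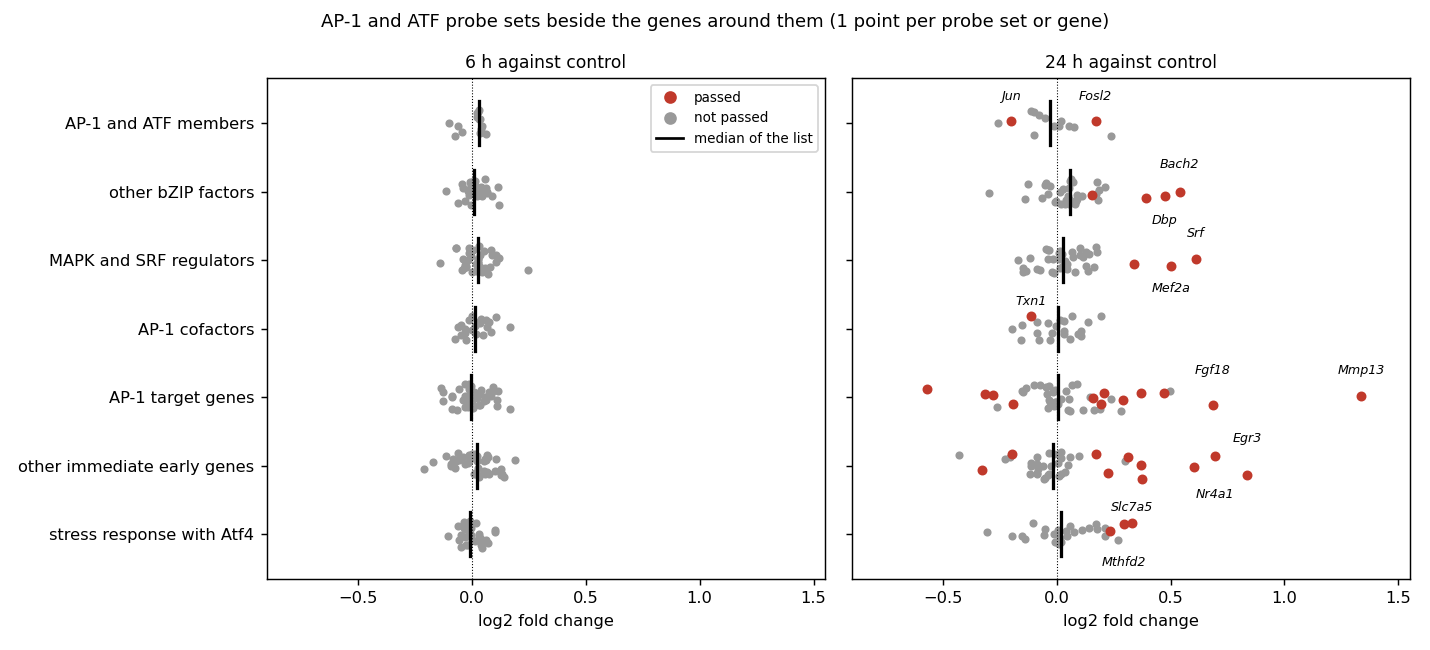
Log2 fold change (horizontal axis) at 6 h and at 24 h against control for the 14 AP-1 and ATF probe sets and for the genes of 6 related lists (vertical axis, 1 point per probe set or gene), red where the adjusted p by limma was under 0.05, with a black line at the median of each list. No point is red at 6 h; at 24 h the points of the AP-1 and ATF group lie between -0.26 and 0.24, while *Mmp13* lies at 1.34, *Egr3* at 0.83 and *Srf* at 0.61.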

How the data were processed

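The authors labelled cRNA from 500 ng of RNA per sample and hybridized it to whole-genome mouse arrays. The deposited values are log2 signals that, per the labels, were made with RMA; its version is not given in the sources used here. Control probe sets (64 of 45101) were excluded, and 34945, 932 and 9160 of the rest had 1, several or no symbols. Symbols were updated through gene identifiers to RefSeq (GRCm38.p6), and probe sets with several symbols were not named. Linear models were fitted to the 9 arrays together in limma 3.58.1 (R 4.3.3), with a term for group, a block for experiment and variances moderated by eBayes along the signal (4 residual and 3 prior degrees of freedom), with Benjamini-Hochberg adjustment over 45037 probe sets and a threshold of 0.05. The replicate number in the labels was taken as the experiment because the study counted changes in each of 3 experiments and because same-numbered arrays deviated together (correlations of 0.701 to 0.933, against -0.674 to 0.00916 for other pairs; 9 of 9 arrays correlated best with their own number). The exactly equal values were included in these correlations, and their part in them was not tested. Each gene of the related and marker lists was represented by its brightest probe set. Genes named beside the members were, from each related list, at most 6 changed genes with the largest changes, and for each changed member the 3 genes most like it. The members and lists were chosen with earlier results of these data known. The procedure was tested on simulated data with normal noise, which lacked the exactly equal values of the deposited data. Recovery was required only for changes larger than those of *Fosl2* and *Jun*. Changes near their size were simulated too, but that requirement did not cover them. Alternatives to the block, the groups fitted, the trend, the filter, the normalization between arrays, the test and the threshold, and fits without each array and experiment, were run; the last of these was added for the related lists after seeing the data. The number of arrays limits the precision.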

Additional observations from a re-analysis of the deposited data

Results flagged for a closer look

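The signal after LIPUS differed between 24 h and 6 h for a pair of probe sets, by the limma comparison of the LIPUS times themselves. *Fosl2* 1437247_at was higher at 24 h than at 6 h in 3 of 3 experiments, by 0.14 on the log2 scale on average (limma adjusted p = 0.0478). Its differences from the control were 0.17 at 24 h and 0.03 at 6 h. For *Jun* 1417409_at the difference was -0.24 (limma adjusted p = 0.0262), with -0.20 at 24 h and 0.04 at 6 h, in 3 of 3 experiments. Over the fits without 1 array or 1 experiment the difference ran from 0.13 to 0.16 for *Fosl2* and from -0.28 to -0.20 for *Jun*. Of the 3 fits without an experiment, *Fosl2* passed in 0 and *Jun* in 1. The 24 h arrays also had a longer time in culture, and no mock array is labelled for each time. The effect of LIPUS on these differences cannot be told apart from that of time.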

How the results depend on the processing

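Both calls at 24 h rested on treating the replicate number as a block. Without the replicate block 0 member probe sets passed at 24 h against control, 0 at 24 h against 6 h and 0 of the related genes (adjusted p = 1 for *Fosl2* and *Jun*), and with it as a random effect 0 and 1 of the members passed (at 24 h, 0.174 for *Fosl2* and 0.0864 for *Jun*). In the comparisons with control and with 6 h, 0 and 0 passed with only the groups compared, 0 and 0 without the trend, 1 and 0 with arrays centred on their median, 2 and 1 after quantile normalization, 2 and 3 with a filter on dim probe sets or at an adjusted p threshold of 0.1 (*Jun* 1448694_at was added, adjusted p = 0.0382 with the filter), and 0 and 0 by a paired t-test after adjustment (1 and 3 before it), by the methods' t-test before and after adjustment, and by the 1.5-fold rule. Without 1 array or experiment the counts ran from 0 to 1, from 0 to 2 and, for the related genes, from 0 to 37; at 6 h the count stayed at 0 in every alternative run. The lowest and highest related counts came without experiments 1 and 3. The cause was not tested. Leaving out 1 array or experiment moved the 24 h difference of *Junb* between -0.23 and -0.036, of *Atf3* between 0.15 and 0.36, of *Jund* 1449117_at between -0.12 and -0.064, of *Maff* between 0.043 and 0.11 and of *Batf3* between -0.12 and -0.048. No sign turned for *Fosl2* 1437247_at or *Jun* 1417409_at at 24 h. After quantile normalization *Fosb* at 24 h turned to 0.00306 and *Fos* at 6 h to -0.00309. Other signs that turned when an array or experiment was left out belonged to small differences. At 24 h these were *Fosb* (-0.044 to 0.036), *Fosl1* 1417488_at (-0.036 to 0.056), *Fosl2* 1422931_at (-0.032 to 0.046) and *Jund* 1440265_at (-0.060 to 0.12). At 6 h they were *Fosb* (-0.047 to 0.090), *Fosl1* 1417487_at (-0.023 to 0.092), *Fosl2* 1422931_at (-0.092 to 0.00112), *Junb* (-0.050 to 0.094), *Jund* 1440265_at (-0.17 to 0.019), *Atf3* (-0.057 to 0.12) and *Maff* (-0.00608 to 0.045). At 24 h against 6 h they were *Fosb* (-0.10 to 0.042) and *Batf3* (-0.027 to 0.011).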
